A study of Drosophila melanogaster with 20 samples.

Results

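The nucleolar snoRNP and ribosome assembly genes described here are Fib, nop5, Nop56, Nop60B, NHP2, Nopp140, Ns1 and pit, taken by name from the 17609 genes of the count table, so that 8 of 17609 genes are described. RNA was sequenced from whole Drosophila melanogaster heads in 4 groups of 5 libraries, each library made from 10 pooled heads of unmated flies aged 1 week. The groups were males and females of the w- genotype and of the w+ genotype, where w is the X-linked white gene, whose product is an ABC transporter subunit needed for eye pigment. All 4 groups shared the w1118 background, in which w is partly deleted. The w- flies had white eyes and only that allele, and the w+ flies had red eyes and a wild-type w allele from the Harwich line, crossed into w1118 over 10 generations. In that cross the red-eyed females carry 1 wild-type copy; the study's methods took adult flies for assays from it and bred homozygous lines where embryos or larvae were needed. The allele and any Harwich DNA that stayed linked to it cannot be told apart, and none of the genes described lies on the X chromosome (0 of 8).

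Ribosomes are built in the nucleolus, where the precursor of ribosomal RNA is transcribed, modified, cleaved and packed with ribosomal proteins. Small nucleolar RNAs (snoRNAs) guide the modification as part of protein particles (snoRNPs), which are of the box C/D or the box H/ACA kind. Box C/D particles methylate the ribose of chosen bases, box H/ACA particles turn chosen uridines into pseudouridine, and genes of this kind are strongly expressed in growing and egg-making tissue.

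Fib encodes fibrillarin, the methyltransferase of the box C/D particle, and nop5 and Nop56 encode the paired scaffold proteins on which it sits. Nop60B encodes the pseudouridine synthase of the box H/ACA particle (the fly dyskerin), and NHP2 encodes a small RNA-binding core protein of the same particle. Nopp140 encodes a nucleolar phosphoprotein that binds both kinds of particle, Ns1 encodes nucleostemin 1, a nucleolar GTPase of large subunit release, and pit (pitchoune) encodes a nucleolar DEAD-box RNA helicase.

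The genes lie apart on the autosomes, in Release 6 coordinates. Fib (FBgn0003062) is at 2R:23072909-23074725 on the minus strand, nop5 (FBgn0026196) at 2L:6916753-6918743 on the minus strand and Nop56 (FBgn0038964) at 3R:22419095-22421068 on the minus strand. Nop60B (FBgn0259937) is at 2R:24174877-24186343 on the plus strand and NHP2 (FBgn0029148) at 3L:14801328-14802168 on the minus strand. Nopp140 (FBgn0037137) is at 3L:21832774-21836685 on the plus strand, Ns1 (FBgn0038473) at 3R:17070523-17072675 on the minus strand and pit (FBgn0266581) at 3R:22034298-22038925 on the plus strand. Beyond their products, 4 of the 8 share an arrangement: Fib, nop5 and pit each hold 1 annotated snoRNA gene on their own strand, outside their exons (for pit, a small Cajal body RNA annotated as one), and Nop60B holds 7, whereas 84 of 13975 protein-coding genes of the table (0.601%) hold any. Most of those inside Nop60B overlap an annotated exon of it, and no snoRNA gene inside these 4 genes had more than 8 counts in a library. nop5 itself lies within x16, and Fadd within pit, on the same strand with no shared exon, and the end of Nopp140 overlaps 21 exonic bases of P5CDh1 on the opposite strand; reads were counted by strand.

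Libraries of males held 34335778 to 38617005 counts for w- and 39274716 to 48866963 for w+, and libraries of females 34211100 to 40240201 for w- and 38682733 to 47133676 for w+. The targeted gene matched its labels: w had 0.204 to 0.358 CPM (counts-per-million, after TMM normalization) in w- males, against 8.43 to 11.9 CPM in w+ males, and 0.102 to 0.438 CPM in w- females, against 12.6 to 16.6 CPM in w+ females. The male dosage-compensation RNA roX1 was at 3710 CPM or more in each male library and at 43.3 CPM or less in each female one, and the yolk protein gene Yp1 showed the opposite. Markers of photoreceptors, neurons and glia summed to at least 41100, 2960 and 1620 CPM in every library. One group was uneven: in w+ females the 10 most abundant genes took 17.1% to 23.8% of counts, and the TMM normalization factor ran from 0.7931 in replicate 4 to 0.959.

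To compare the genes with each other, CPM were divided by the length of all annotated exons in kilobases. Nucleolar genes were moderately expressed in heads: their mean CPM per kb lay between percentiles 39.7 and 66.1 of the 11412 genes with a length. In w- males Ns1 stood first at 12.9 ± 0.455 CPM per kb (SD, n = 5), apart from the next gene. NHP2 (10.3), Nop56 (9.95) and Nopp140 (9.84 CPM per kb) followed with overlapping libraries, then nop5 (8.78), and then Fib (6.23), pit (5.80) and Nop60B (5.74 CPM per kb), again overlapping. In w+ females nop5 stood first at 16.6 ± 4.94 CPM per kb and Ns1 second at 16.5 ± 2.10 CPM per kb (SD, n = 5), and every gene overlapped its neighbour in the order, down to pit at 7.19 CPM per kb. In w+ males and in w- females Ns1 was first, at 13.2 and 14.2 CPM per kb, overlapping NHP2 in both groups. Within the box C/D core the 3 genes were not at one level: nop5 had 1.69 ± 0.153 times the per-length level of Fib in w+ females and 1.41 ± 0.0537 times in w- males (SD, n = 5). Nop56 and nop5 were closer: their mean ratio, Nop56 to nop5, was 0.862 in w+ females and 1.14 in w- males.

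The first comparison asked what loss of white function did to these genes in females. All 8 nucleolar genes had a lower mean in w- females than in w+ females, with fitted folds of 0.690 (nop5) to 0.877 (Nopp140), and the box C/D genes and Nop60B were furthest apart. No gene passed the threshold (an adjusted p under 0.05 with edgeR's quasi-likelihood test, 0 of 8 called), at which 9.23% of the 10762 genes tested were called and 4.51% were called lower in w- females. Before adjustment, 6 of 8 had p under 0.05, as had 32.1% of all genes, 17.0% with a lower value in w- females. The median log2 fold change was -0.28 over the 8 genes and -0.004 over all genes tested, and 51.1% of all genes had an estimate below 0.

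**Figure D1:**
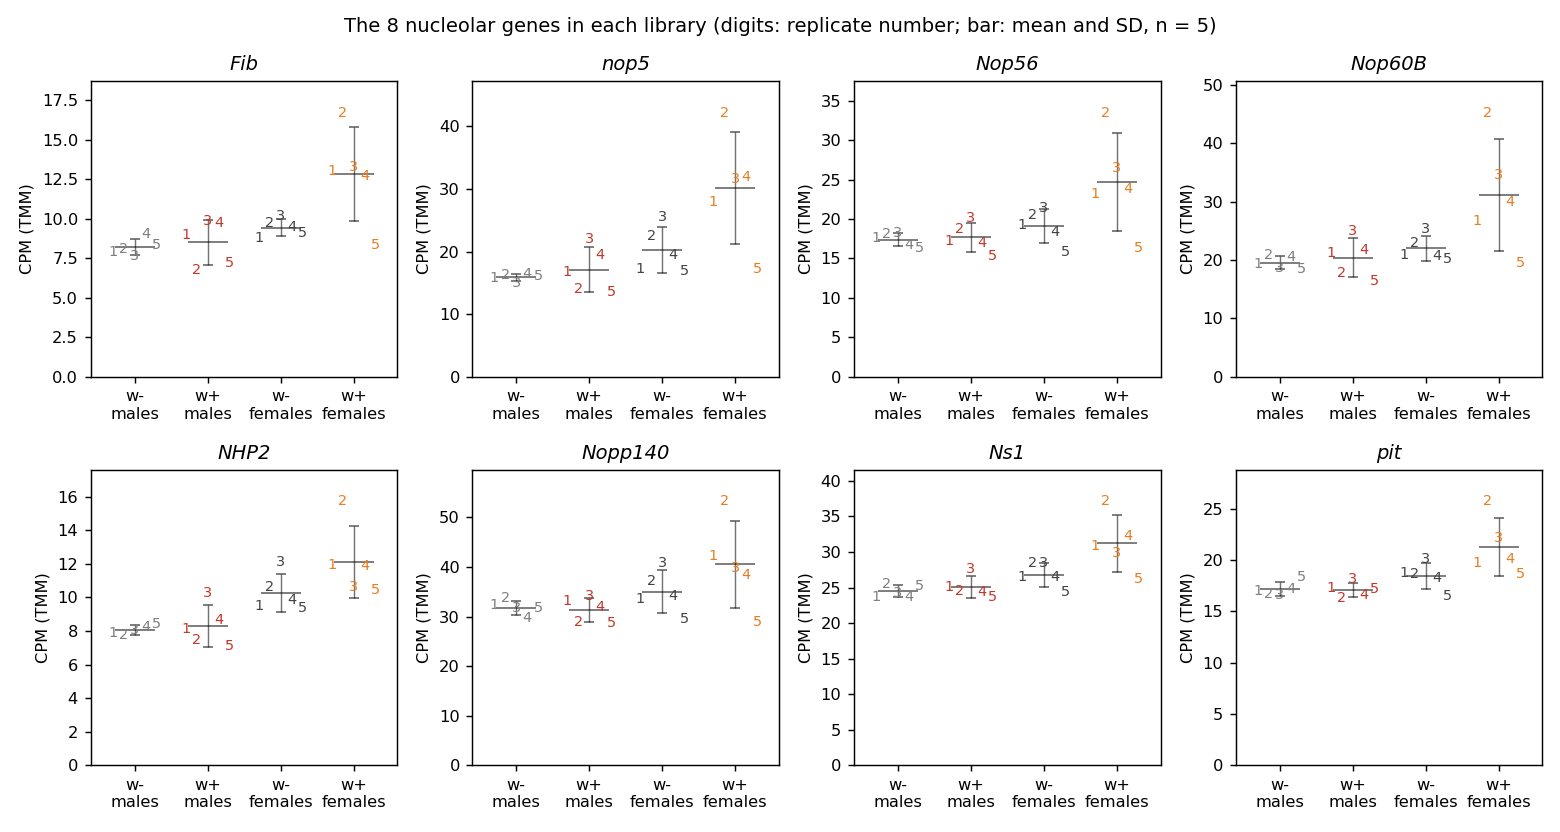
CPM of each nucleolar gene (vertical axes, from 0) in each of the 20 libraries, with w- left of w+ within each sex. Digits give the replicate number, bars the mean and SD of 5 libraries. In w+ females replicate 2 was the highest and replicate 5 the lowest library for every one of the 8 genes.

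The box C/D genes are given first. nop5 had 17.2, 22.5, 25.5, 19.5 and 16.8 CPM in replicates 1 to 5 of the w- females, against 27.9, 42.2, 31.6, 31.9 and 17.3 CPM in w+ females. Fib had 8.81, 9.72, 10.2, 9.47 and 9.08 CPM in w- females, against 13.0, 16.7, 13.3, 12.7 and 8.36 CPM in w+ females. Nop56 had 19.3, 20.5, 21.4, 18.4 and 15.9 CPM in w- females, against 23.2, 33.5, 26.5, 23.8 and 16.3 CPM in w+ females. For each of the 3 genes, 4 of the w+ libraries were above every w- library, and replicate 5 of the w+ females fell among the w- females or below them. The log2 fold changes were -0.54 ± 0.13 (SE) for nop5, -0.41 ± 0.12 for Fib and -0.34 ± 0.09 for Nop56, with adjusted p of 0.056, 0.077 and 0.059 (edgeR's quasi-likelihood test). The 95% intervals did not include 0, from -0.85 to -0.22 for nop5, from -0.70 to -0.12 for Fib and from -0.55 to -0.13 for Nop56. These fits took the replicate number as a block. Without it the SE were 0.22 for nop5, 0.14 for Fib and 0.16 for Nop56. The adjusted p were then 0.13, 0.087 and 0.19 (edgeR's quasi-likelihood test).

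Of the box H/ACA genes, Nop60B had 20.9, 22.9, 25.4, 20.8 and 20.2 CPM in w- females, against 26.7, 45.3, 34.6, 30.0 and 19.5 CPM in w+ females. NHP2 had 9.5, 10.6, 12.1, 9.82 and 9.34 CPM in w- females, against 11.9, 15.7, 10.6, 11.9 and 10.4 CPM in w+ females. Both pairs of groups overlapped: for Nop60B only replicate 5 of the w+ females was not above every w- library, whereas for NHP2 only replicate 2 was. The log2 fold change was -0.46 ± 0.14 for Nop60B and -0.23 ± 0.10 for NHP2, with adjusted p of 0.086 and 0.19 (edgeR's quasi-likelihood test). The interval for NHP2, from -0.47 to 0.02, included 0.

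Nopp140 had 33.4, 37.2, 40.8, 34.2 and 29.5 CPM in w- females, against 42.1, 53.2, 39.9, 38.5 and 28.8 CPM in w+ females. Ns1 had 26.5, 28.4, 28.4, 26.5 and 24.4 CPM in w- females, against 30.8, 37.1, 29.8, 32.2 and 26.2 CPM in w+ females. pit had 18.7, 18.7, 20.1, 18.2 and 16.5 CPM in w- females, against 19.8, 25.7, 22.2, 20.1 and 18.6 CPM in w+ females. For Ns1, 4 of the 5 w+ libraries were above every w- library, whereas for Nopp140 and for pit 2 of 5 were. The log2 fold changes were -0.19 ± 0.09 for Nopp140, -0.21 ± 0.05 for Ns1 and -0.20 ± 0.06 for pit, with adjusted p of 0.19, 0.054 and 0.084 (edgeR's quasi-likelihood test). The number of the 8 called moved with the fit: DESeq2 called 5 of the 8 lower, a fit of all 20 libraries 6, and leaving out replicate 5 of both female groups 4 (nop5, Fib, Nop56 and Nop60B), while leaving out any other number called 0. NHP2 and Nopp140 were called in none of these. Of all genes, DESeq2 called 1704 of 10762 and the fit of all libraries 2068 of 11423, against 993 of 10762 in the main fit. Leaving out number 5 gave 1121 calls among 10704 genes, and leaving out another number 82 to 618 calls. Without the replicate number as a block 0 of 8 were called, with adjusted p from 0.087 (Fib) to 0.38 (Nopp140) by edgeR's quasi-likelihood test. Without number 2 the log2 fold changes of NHP2, Nopp140 and pit were -0.14, -0.11 and -0.13, and with library size in place of TMM the median of the 8 was -0.14, against 0.14 over all genes.

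Markers of other cells differed between the same female libraries. The 5 fat body markers summed to 12800, 8140, 13600, 14900 and 7800 CPM in w- females, against 22900, 23300, 14400, 23400 and 11400 CPM in w+ females, with 0 of 5 called. Muscle markers summed to 4370 to 4850 CPM in w- females, against 3140 to 4010 CPM in w+ females, with 3 of 5 called higher, and hemocyte markers summed to 383 to 644 CPM, against 370 to 409 CPM, with 0 of 5 called. The libraries were not in one order by both measures: replicate 5 was lowest in fat body sum in both groups and lowest for most of the 8 genes, whereas among w- females replicate 2 was second lowest in fat body sum and second highest in the mean z-score of the 8 (0.339), and replicate 4 was highest in fat body sum with a mean z-score of -0.0834. The part of these cells in the differences was not tested, and in heads measured in bulk, fewer cells of a type and less RNA per cell cannot be told apart. Female germline markers summed to 0.458 to 0.730 CPM in w- females and 0.379 to 0.725 CPM in w+ females, so these defining markers of egg-making cells were at or near 0.

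In males no difference larger than the spread between libraries was detected in the same comparison. The log2 fold changes lay between -0.09 (nop5) and 0.02 (Nopp140), 0 of 8 genes were called by edgeR's quasi-likelihood test or by DESeq2, and 0 of 8 had an unadjusted p under 0.05, where 12.7% of the 11187 genes tested were called and 26.5% had an unadjusted p under 0.05. nop5 had 15.7, 16.3, 15.1, 16.5 and 16.0 CPM in w- males, against 16.8, 14.0, 21.99, 19.4 and 13.5 CPM in w+ males. Nop60B had 19.3, 20.9, 18.6, 20.6 and 18.5 CPM in w- males, against 21.1, 17.9, 25.0, 21.7 and 16.5 CPM in w+ males. For both genes the w- males lay inside the range of the w+ males. The 95% intervals limited a change in males to between -0.39 and 0.21 for nop5 and between -0.10 and 0.11 for pit on the log2 scale. Fib averaged 8.21 ± 0.525 CPM in w- males and 8.50 ± 1.43 CPM in w+ males, and Nop56 17.4 ± 0.817 CPM in w- males and 17.7 ± 1.80 CPM in w+ males (SD, n = 5 each). NHP2 averaged 8.06 ± 0.270 CPM in w- males and 8.31 ± 1.245 CPM in w+ males. Of the snoRNP proteins outside the cores and the assembly factors, Nopp140 averaged 31.8 ± 1.41 CPM in w- males and 31.3 ± 2.49 CPM in w+ males. Ns1 averaged 24.5 ± 0.862 CPM in w- males and 25.0 ± 1.52 CPM in w+ males, and pit 17.2 ± 0.714 CPM in w- males and 17.1 ± 0.690 CPM in w+ males. All these ranges overlapped. Fat body markers summed to 4260 to 6430 CPM in w- males, against 6630 to 10600 CPM in w+ males, with 2 of 5 called lower, and photoreceptor markers had 2 of 5 called higher in w- males, beside 0 of 8 calls among the nucleolar genes.

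Whether the w- difference itself differed between the sexes was tested as an interaction. Females minus males, the difference in log2 fold change lay between -0.46 (nop5) and -0.18 (Ns1) with a median of -0.27, against -0.008 over all 11423 genes, of which 53.0% were below 0. By edgeR's quasi-likelihood test 0 of 8 passed, with adjusted p from 0.68 to 0.90, where 0.0263% of all genes passed, and DESeq2 called 0 of 8 as well. Before adjustment 6 of 8 had p under 0.05, as had 6.03% of all genes; the smallest was 0.0097, for Nop56, with a difference of -0.32 ± 0.10. A difference between the sexes was therefore not shown for any of the 8. Without number 2 the median was -0.17, with nop5 at -0.28, Fib and Nop60B at -0.21 and NHP2 and Nopp140 at -0.08.

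**Figure D2:**
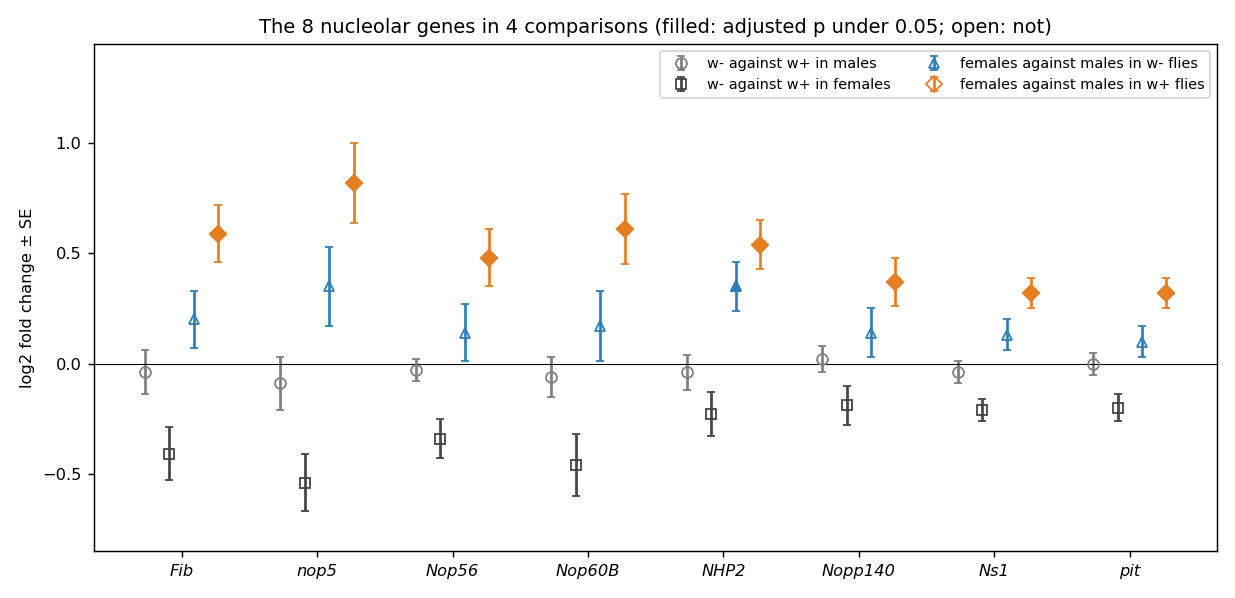
Log2 fold changes of the nucleolar genes (vertical axis, bars are the SE) for w- against w+ in males and in females, and for females against males in w- and in w+ flies; filled marks passed an adjusted p of 0.05. In males the estimates lay at -0.09 to 0.02, in females at -0.54 to -0.19, and all 8 marks are filled only for females against males in w+ flies.

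The libraries of a group differed in these genes together. In w+ females replicate 2 was highest and replicate 5 lowest for 8 of 8 genes, whereas replicate 2 was the highest library for 16.9% and replicate 5 the lowest for 27.4% of all genes. In w+ males replicate 3 was highest for 8 of 8 (20.6% of all genes) and replicate 5 lowest for 6 of 8 (17.9% of all genes). In w- females replicate 3 was highest for 7 of 8 (16.4% of all genes) and replicate 5 lowest for 7 of 8 (21.5% of all genes). In w- males no library led for most of the 8 genes. The highest w+ female library had 2.44 times the lowest for nop5, 2.32 times for Nop60B and 1.38 times for pit, and the 4 genes with the widest gap between w- and w+ females (nop5, Nop60B, Fib and Nop56) were also the 4 with the largest relative spread among the w+ females.

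**Figure D3:**
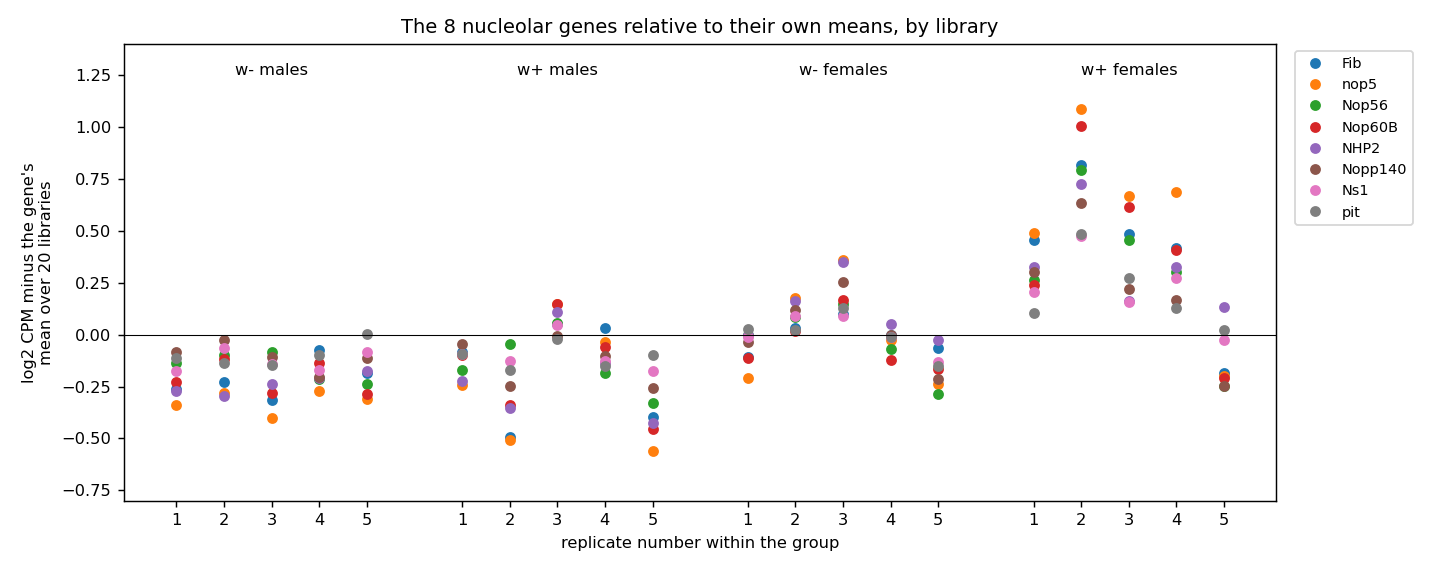
Log2 CPM of each nucleolar gene minus its own mean over the 20 libraries (vertical axis), by library along the horizontal axis, 1 colour per gene. The 8 genes move together, with replicate 2 of the w+ females at the top for each of the 8 and replicate 5 at the bottom of that group.

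The spread between libraries also differed by group. The coefficient of variation over 5 libraries had a median over the 8 genes of 4.29% for w- against 12.6% for w+ in males, and of 10.4% for w- against 22.4% for w+ in females. Genes of the same range of CPM had medians of 5.52%, 6.10%, 6.08% and 7.77% in the same 4 groups. The median of the 8 was thus below that of such genes in w- males and above it in the other 3 groups, which was described and not tested; single genes such as pit in w+ males (4.04%), Fib in w- females (5.61%) and Fib in w- males (6.39%) lay on the other side. At its extremes the coefficient was 3.35% for NHP2 in w- males and 30.7% for Nop60B in w+ females.

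**Figure D4:**
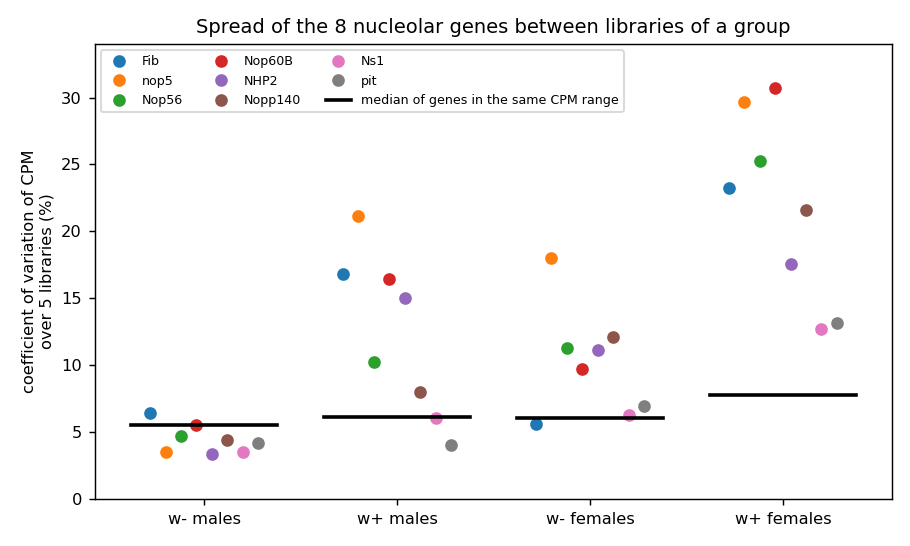
Coefficient of variation in percent (vertical axis, from 0) over the 5 libraries of each group, 1 point per nucleolar gene, with a line at the median of all genes of the same range of CPM. In w+ females the points lie at 12.7% to 30.7%, above the line at 7.77%, and in w- males at 3.35% to 6.39%, around the line at 5.52%.

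Females were compared with males within each genotype; the comparison in w+ flies shares the w+ females with the comparison of w- and w+ females, so its values are given beside that one and not as further support. In w+ flies all 8 genes were higher in females than in males (edgeR's quasi-likelihood test, 8 of 8 called), where 35.5% of all genes were called and 19.7% were called higher in females. nop5 averaged 30.2 ± 8.95 CPM in females and 17.1 ± 3.62 CPM in males (SD, n = 5 each), a log2 fold change of 0.82 ± 0.18. Nop60B averaged 31.2 ± 9.59 CPM in females and 20.4 ± 3.36 CPM in males, and Fib 12.8 ± 2.98 CPM in females and 8.50 ± 1.43 CPM in males. Their log2 fold changes were 0.61 ± 0.16 and 0.59 ± 0.13, with adjusted p of 0.0062 and 0.0020, against 0.0022 for nop5 (edgeR's quasi-likelihood test). The other 5 were higher by 0.54 (NHP2), 0.48 (Nop56), 0.37 (Nopp140), 0.32 (Ns1) and 0.32 (pit) on the log2 scale, with adjusted p from 7.2e-04 to 0.017 by the same test. Every female library was above every male one for NHP2 and for pit, 2 of 8 genes, where 9.60% of all genes did so.

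In w- flies all 8 estimates were above 0 as well, between 0.10 and 0.35. NHP2 alone was called higher in females, 1 of 8 genes, where 35.4% of all genes were called and 18.6% were called higher. NHP2 had 9.5, 10.6, 12.1, 9.82 and 9.34 CPM in w- females, against 7.87, 7.73, 8.06, 8.21 and 8.41 CPM in w- males, with every female library above every male one. Its log2 fold change was 0.35 ± 0.11 with an adjusted p of 0.017 (edgeR's quasi-likelihood test). nop5 had the same estimate, 0.35 ± 0.18, and likewise no overlap between the sexes, which 14.6% of all genes showed, but an adjusted p of 0.15. The other 6 estimates lay between 0.10 (pit) and 0.20 (Fib). A fit of only the 2 groups compared called 4 of 8 in w- flies (NHP2, nop5, Fib and Ns1) and 6 of 8 in w+ flies, without Nop60B (adjusted p 0.051) and Nopp140 (adjusted p 0.060) by edgeR's quasi-likelihood test. In w- flies that fit called 4422 of all 10869 genes it tested, against 4040 of 11423 in the main fit. In w+ flies it gave a median log2 fold change of 0.52 over the 8 genes, against 0.01 over all genes.

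Both sex comparisons depended on libraries and on scaling. Without replicate 2 of the w+ females, a choice made after seeing the data, 7 of 8 were still called in w+ flies. Nopp140 then gave 0.26 with an adjusted p of 0.052 (edgeR's quasi-likelihood test). The median over the 8 was 0.40 in that fit, against 0.01 over all genes. Without number 2 in all 4 groups 6 of 8 were called, the others being Nop60B (0.39) and Nopp140 (0.22). Leaving out that number gave 2748 calls over all genes in w+ flies, against 4059 in the main fit. With library size in place of TMM, which moved the median of all genes to -0.26 in w+ flies, 3 of 8 remained called (nop5, Fib and NHP2) with a median of 0.24 over the 8. In w- flies the same scaling moved the median of all genes to -0.18, turned the sign of Nop56, Nopp140, Ns1 and pit and left no call, and the call of NHP2 was also lost on leaving out number 1, 3 or 4 (adjusted p 0.050 to 0.054). Fat body markers were called higher in females in 5 of 5 cases in w- flies and in 5 of 5 in w+ flies, with sums of 7800 to 14900 CPM in w- females against 4260 to 6430 CPM in w- males, and 11400 to 23400 CPM in w+ females against 6630 to 10600 CPM in w+ males. Hemocyte markers were called higher in females in 5 of 5 cases in w- flies and 4 of 5 in w+ flies, and muscle markers in 4 of 5 in both. In w+ flies 1 of 5 muscle markers was called lower in females. Glia markers had 1 of 5 called higher and 1 called lower in females of each genotype. Neuron markers were called lower in females in 3 of 5 cases in both genotypes, and photoreceptor markers in 4 of 5 in w- flies and 1 of 5 in w+ flies; the part of these cells in the sex differences was not tested.

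Other genes of ribosome assembly were followed in 11 lists by role, with 60 genes besides the 8, all of which were tested. The lists were chosen with earlier results of these data known, so their counts beside the shares of all genes are a description. In w- females 11 of 60 fell and 0 rose (edgeR's quasi-likelihood test), where 4.51% of all genes fell. Of the 60, 42 had an unadjusted p under 0.05 (32.1% of all genes) and 59 an estimate below 0 (51.1% of all genes), with a median of -0.20. In w- males 6 of 60 fell and 0 rose, where 8.06% of all genes fell. Of the 60, 9 had an unadjusted p under 0.05 (26.5% of all genes) and 49 an estimate below 0 (49.7% of all genes), with a median of -0.05. For the difference between the sexes 0 of 60 passed, with 18 at an unadjusted p under 0.05 (6.03% of all genes) and a median of -0.15. The count in females moved with the libraries: it was 0 without number 1, 2 or 4, 2 without number 3 and 20 without number 5. DESeq2 called 10. In males it was 3 without number 3 or 5, and DESeq2 called 3.

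The 11 genes that fell in females came from 4 of the 11 lists, whose counts here include any of the 8. Of the box H/ACA core, Nop10, a small scaffold protein of that particle, averaged 3.51 ± 0.472 CPM in w- females and 5.06 ± 1.07 CPM in w+ females (SD, n = 5 each), a log2 fold change of -0.51 ± 0.10 with an adjusted p of 0.034 (edgeR's quasi-likelihood test). Gar1 of that core and hoip, the fly protein of the box C/D core that binds the kink-turn, named after their values were seen because they complete the cores, had -0.20 ± 0.10 and -0.33 ± 0.10 with adjusted p of 0.22 and 0.073. Of the nucleolar GTPases Ns1 belongs to, 3 of 4 fell in females: Ns2 (-0.27), Ns3 (-0.26) and Non1 (-0.63). Of 10 genes of small subunit assembly 3 fell, among them wcd, the fly homologue of a protein of the U3 snoRNA particle (-0.38), and the gene FBgn0010926 (-0.21). Of 18 genes of large subunit assembly 4 fell, among them Ip259 (-0.40) and CG4364, the fly Pescadillo (-0.40). None of the box C/D core (0 of 4), RNA exosome (0 of 9), RNA polymerase I (0 of 5), RNA helicase (0 of 5), Myc network (0 of 3), nucleolar histone chaperone (0 of 3) or snoRNP chaperone genes (0 of 3) was called in females by edgeR's quasi-likelihood test, with 4, 5, 2, 5, 1, 3 and 0 at an unadjusted p under 0.05.

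Ip259, CG4364, Ns3 and Non1 fell in both sexes. Ip259 averaged 167 ± 6.82 CPM in w- females and 222 ± 30.1 CPM in w+ females, and 163 ± 6.66 CPM in w- males and 186 ± 8.08 CPM in w+ males (SD, n = 5 each). Non1 averaged 341 ± 15.7 CPM in w- males and 424 ± 43.0 CPM in w+ males, and Rrp4, an exosome cap subunit, 4.92 ± 0.406 CPM in w- males and 6.17 ± 0.368 CPM in w+ males. In males the log2 fold changes were -0.31 for Non1, -0.26 for CG4364, -0.20 for Ip259, -0.21 for Ns3 and -0.33 for Rrp4, with adjusted p from 0.0054 to 0.025 (edgeR's quasi-likelihood test). In the sex comparisons 28 of the 60 were called higher and 1 lower in females of w+ flies, where 19.7% of all genes were called higher, and 7 higher and 3 lower in females of w- flies, where 18.6% of all genes were called higher.

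**Figure D5:**
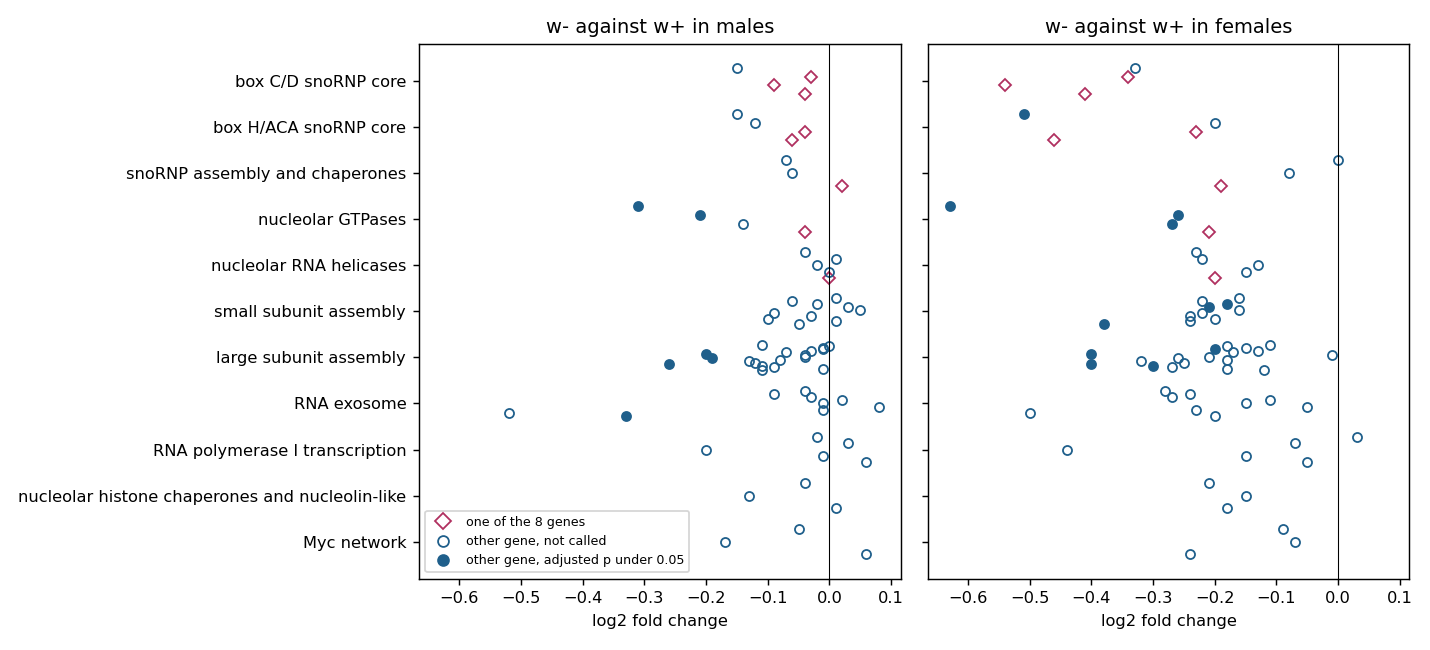
Log2 fold change of w- against w+ (horizontal axes) for every gene of the 11 ribosome assembly lists (rows) in males and in females, with the genes that passed an adjusted p of 0.05 filled. In females 59 of the 60 genes besides the 8 lie left of 0 and 11 are filled, and in males 49 lie left of 0 and 6 are filled.

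Among the 11423 genes tested over all libraries, the genes whose pattern was nearest to the mean of the 8 were sought by the root-mean-square distance of z-scored log2 CPM over the 20 libraries, as a description. The 5 nearest besides the 8 were CG1785 (0.238), mod (0.239), CG8545 (0.276), CG32409 (0.299) and CG5033 (0.304), against 0.172 (nop5) to 0.365 (NHP2) for the 8 themselves, which make up that mean. mod encodes modulo, a nucleolin-like protein, and RefSeq lists NOP2 as a synonym of CG8545 and BOP1 as one of CG5033. Of these, mod and CG5033 are also among the 60 listed genes, and CG5033 is one of the 11 that fell in females. Since the 5 were chosen for this pattern in the same libraries, their values are given here without a test. In females the log2 fold changes were -0.39 for CG32409, -0.38 for CG8545, -0.30 for CG5033, -0.25 for CG1785 and -0.18 for mod. In males the 5 lay between -0.11 and 0.04.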

How the data were processed

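Poly-A RNA libraries (Kapa mRNA HyperPrep) of heads were sequenced on an Element AVITI. The authors trimmed reads with Trim Galore 0.6.1, aligned them to the r6.60 fly genome with STAR and deposited reverse-strand counts per gene, which were used here as raw counts; their normalized tables were not used. Groups came from the sex, genotype and replicate labels. Nothing in the sources says whether the pools of a group came from separate vials, so p-values refer to these pools only. For w- against w+ and for the interaction, they measure the spread left after the replicate number is taken out as a block. For females against males they measure the spread between pools of a group.

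w- was compared with w+ within each sex by edgeR 4.0.16 (R 4.3.3; robust quasi-likelihood, TMM) with the replicate number as a block, as in the study's code, on genes with at least 10 counts in 3 libraries, with Benjamini-Hochberg adjustment over all genes. The sex difference of the w- effect was an interaction with 10 blocks, and females against males was taken from a fit of all 20 libraries without blocks. CPM used TMM over 20 libraries, and lengths came from Ensembl release 115 (BDGP6.54, the same Release 6 assembly). Z-scores used a prior count of 2. On simulated counts with 200 genes changed by 1 on the log2 scale, 200 were recovered in each comparison of w- and w+, with 7 false calls in males and 6 in females, and 196 for the interaction.

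The genes named are the 8, up to 2 called genes per list with the smallest p, the 5 nearest in pattern, and hoip and Gar1, added after their values were seen; members and lists were chosen with earlier results of these data known. All 68 listed pathway genes were found, 9 by a synonym, and 34 of 35 cell markers. Alternatives were DESeq2 1.42.0, no block, other scalings, no filter, fits of more or fewer groups, and leaving out each replicate number. Promoter and protein sequences were not analysed here.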

Additional observations from a re-analysis of the deposited data

Results flagged for a closer look

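Over the 8 genes in 4 groups, 32 sets of 5 libraries were searched for a library far from the others, and 1 of the 32 stood out. Chance alone flags about 1 set in 20, so 1 flag among 32 sets is not more than chance gives. NHP2 had 15.7 CPM in replicate 2 of the w+ females, against 10.4 to 11.9 CPM in the other 4 libraries of that group. The gap to the nearest library was 0.723 of the whole range, past the limit of 0.71 for 5 samples. The same library was the highest of its group for the other 7 genes as well, none of which passed that limit.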

How the results depend on the processing

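The 8 genes had at least 288 counts in every library. The correlations did not show that the replicate numbers pair the samples, since not every pair correlated above 0.1. Same-numbered deviations of w- and w+ libraries correlated at -0.477 to 0.750 in males and -0.438 to 0.250 in females. Those of females and males correlated at -0.135 to 0.499 in w- flies, where 4 of 5 correlated best with their own number. In w+ flies they correlated at -0.0647 to 0.147. The block was kept because the study's code has it. The main fits of w- against w+ and of the interaction therefore do treat same-numbered libraries as pairs, and their SE and p-values rest on that. With no replicate block 1737 genes were called in males and 659 in females, against 1421 and 993, and 0 and 0 of the 8; other pathway genes called in females were 6, against 11. With the block in the sex comparisons, 4405 genes were called in w- flies and 4299 in w+ flies, with 1 and 8 of the 8.

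In females, DESeq2 called 1704 genes and 5 of the 8 (nop5, Nop60B, Nop56, Fib and Ns1), and one fit of all 20 libraries called 2068, 6 of the 8 and 24 of the other pathway genes. Library size alone called 2215, with 1 of the 8 (nop5, -0.39) and 4 of the other pathway genes, and moved the share of calls that were higher to 83.1%, against 51.2%, and the median of all genes to 0.14. In males that share was 59.3%, against 36.5%. In the sex comparisons the same scaling gave 18.2%, against 52.6%, in w- flies, and 10.0%, against 55.6%, in w+ flies, where it called 7159 genes and 3 of the 8. In w- flies it called 0 of the 8, with Nop56 and Nopp140 at -0.03, Ns1 at -0.04 and pit at -0.07, whereas a fit of only those 2 groups called 4 of the 8 and 4422 of all 10869 genes. DESeq2 called 18 genes for the difference between the sexes, against 3. Of the other pathway genes in males, DESeq2 called 3 and the fit of all libraries 2, against 6.

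Estimates near 0 in males changed sign: with library size alone Fib, NHP2 and Ns1 had 0.01, Nop56 0.03 and CG8545 0.00, and with no filter on low counts pit had -0.01 and mod -0.00. The estimates of the 8 in females stayed below 0 in every alternative run, but with library size alone ran from -0.39 (nop5) to -0.05 (Nopp140), with Ns1 at -0.07 and pit at -0.06.

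Leaving out 1 replicate number at a time gave 714 to 1526 calls in males, 82 to 1121 in females and 0 to 5 for the difference between the sexes. For females against males it gave 2979 to 3768 calls in w- flies and 2748 to 4157 in w+ flies. Of the 8, 0 to 4 were called in females, 0 to 2 for females against males in w- flies and 6 to 8 in w+ flies. Of the other pathway genes, 3 to 7 were called in males and 0 to 20 in females. In males the estimates ran from -0.12 to 0.04 for Fib and for Nop60B, -0.17 to 0.03 for nop5, -0.05 to 0.01 for Nop56, -0.11 to 0.04 for NHP2, -0.03 to 0.05 for Nopp140, -0.07 to 0.01 for Ns1 and -0.02 to 0.04 for pit. In females they ran from -0.65 to -0.44 for nop5, -0.54 to -0.32 for Fib, -0.41 to -0.24 for Nop56, -0.58 to -0.32 for Nop60B, -0.33 to -0.14 for NHP2, -0.25 to -0.11 for Nopp140, -0.25 to -0.17 for Ns1 and -0.23 to -0.13 for pit. Of the genes nearest in pattern, they ran in males from -0.02 to 0.07 for mod, -0.08 to 0.03 for CG8545 and -0.02 to 0.11 for CG32409.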
